A study of Mus musculus with 8 samples.

Results

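The genes described here are the machinery that copies DNA in S phase and the histone genes transcribed with it. They were taken by name as 30 replication factors and by symbol pattern as all genes whose symbol begins with Hist1h, Hist2h, Hist3h or Hist4h. The embryonic brain table listed 29 of the factors (all except Orc6) and 44 such histone genes, together 73 of its 14496 genes. The table of mouse embryonic stem cells (mESC) listed 26 of the factors and 3 histone genes among 9217 genes. It holds only genes with an annotated entry, so a gene missing from it is not shown to be unexpressed.

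RNA-seq was read from 6 mouse embryonic brain libraries and 2 mESC libraries. The series calls these libraries RNA-seq, while the labels give genomic DNA as the molecule, and they were read as RNA-seq. The NTD (neural tube defect) group of 3 libraries came from embryos whose dams ate a low folate diet and received 1.5 mg/kg methotrexate (MTX) into the peritoneum on gestational day 7.5. The CON group of 3 libraries is labelled with normal saline and came from embryos with closed neural tubes. Embryos of both groups were collected between day 9.5 and day 10.5, and NTD embryos are described as smaller and delayed, with hindbrain malformation and spina bifida. What the CON dams ate is not stated, so MTX, diet, developmental stage and the selection of malformed embryos cannot be told apart. Whether the 3 libraries of a group came from separate litters or from pools is not given either, and p-values therefore measure the spread between these samples, which may be technical. The mESC line, of Sv129 background, was split into cells kept without folate (FA0) and cells kept with folic acid at 4 mg/L (FA4), 1 library each.

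Eukaryotic replication starts when the origin recognition complex, Cdc6 and Cdt1 load the ring-shaped MCM2-7 helicase onto origins in G1. Cyclin E with its kinase, Mcm10, Cdc45 and the GINS complex then turn the loaded ring into an active helicase, and primase, DNA polymerases, the PCNA clamp and its loader copy both strands. Replication histones package the new DNA: their mRNAs are made in S phase, carry no poly(A) tail and end in a stem-loop bound by Slbp. Antifolates lower the supply of thymidylate and purines for DNA synthesis.

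Total counts per brain library ran from 17335564 to 26788304. In a principal component analysis NTD 3 (-75.25) and CON 1 (-71.75) stood away from the rest (35.09 to 38) along component 2, which held 21.33% of the variance, so counts of calls are also given without these 2 libraries. The dissected tissue differed between groups in its markers. Among all tested genes, edgeR called 1.89% higher and 0.998% lower over the 6 libraries. The shares without NTD 3 and CON 1 are not given here. Trophoblast genes (Prl3d2 and others, 9 in the table) summed to 1568, 1773 and 1077 CPM in NTD and to 0, 0.2922 and 1.044 CPM in CON, and 7 of 9 rose (edgeR, as for the factors below; 8 without NTD 3 and CON 1). Of these, Prl3d3, Prl8a9 and Tpbpa had 0 counts in every CON library. Yolk sac endoderm genes (14) summed to 13080 to 15630 CPM in NTD and to 331.7 to 640.9 CPM in CON, and 5 rose (8 without NTD 3 and CON 1). Neuron genes (13) summed to 866.6 to 1022 CPM in NTD and to 4395 to 6208 CPM in CON, and 11 fell (8 without NTD 3 and CON 1). Neural progenitor genes (10) summed to 1001 to 1589 CPM in NTD and to 2123 to 2786 CPM in CON, and 2 fell (also 2 without NTD 3 and CON 1). Endothelial genes (7) summed to 386.2 to 434.9 CPM in NTD and to 234.8 to 271.8 CPM in CON, and 1 rose (also 1 without NTD 3 and CON 1). Erythroid genes (11) summed to 20100 to 22020 CPM in NTD and to 16280 to 26560 CPM in CON. Of these, 1 fell (2 without NTD 3 and CON 1). Macrophage genes (7) summed to 13.79 to 28.44 CPM in NTD and to 35.45 to 57.83 CPM in CON. Pluripotent cell genes (6) summed to 131.4 to 211.2 CPM in NTD and to 30.92 to 77.03 CPM in CON. No macrophage or pluripotent cell gene was called. The part of these marker differences in the results on replication genes was not tested. In such bulk tissue fewer cells of a type and less RNA per cell cannot be told apart.

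All 29 replication factors had counts in each brain library, except Orc1 and Ccne2, which were at 0 in CON 1, and edgeR called none of the 29 as changed between NTD and CON. Per length, Pcna had the highest level of the factors in both groups, at 192.6 RPKM in NTD and 189.1 RPKM in CON. Mcm7 came next in NTD (140 RPKM in NTD, 71.23 RPKM in CON) and Mcm3 next in CON (133.9 RPKM in NTD, 109.4 RPKM in CON). Ccne2 was the lowest, at 2.846 RPKM in NTD and 0.2453 RPKM in CON. Summed over the 29 genes, the NTD libraries held 5077, 4816 and 5062 CPM and the CON libraries 4113, 4045 and 3731 CPM. The sums did not overlap, with means of 4985 ± 146.3 CPM in NTD and 3963 ± 203.7 CPM in CON (SD, n = 3 each).

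Gene by gene, edgeR's quasi-likelihood test with Benjamini-Hochberg adjustment over 11626 genes called 0 factors higher and 0 lower at an adjusted p under 0.05, where 1.89% of all tested genes were called higher and 0.998% lower (2.89% either way). Without NTD 3 and CON 1 the counts were also 0 and 0. At an unadjusted p under 0.05 there were 7 factors (24.1%), beside 15% of all tested genes. In 5 factors every NTD library lay above every CON library and in 3 every NTD library lay below, together 27.6%, beside 12.4% above and 12.1% below (24.5% in all) among all tested genes. The median log2 fold change of NTD over CON was 0.292 over the factors, with 20 above 0 and 9 below, and -0.015 over all tested genes. DESeq2 called 2 factors higher (Mcm7 and Cdt1) and 1 lower (Gins1), where it called 5.24% of all tested genes higher and 3.67% lower. Limma-voom called 1 factor higher (Mcm7) and 0 lower, where it called 1.33% of all tested genes higher and 0.895% lower.

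**Figure D1:**
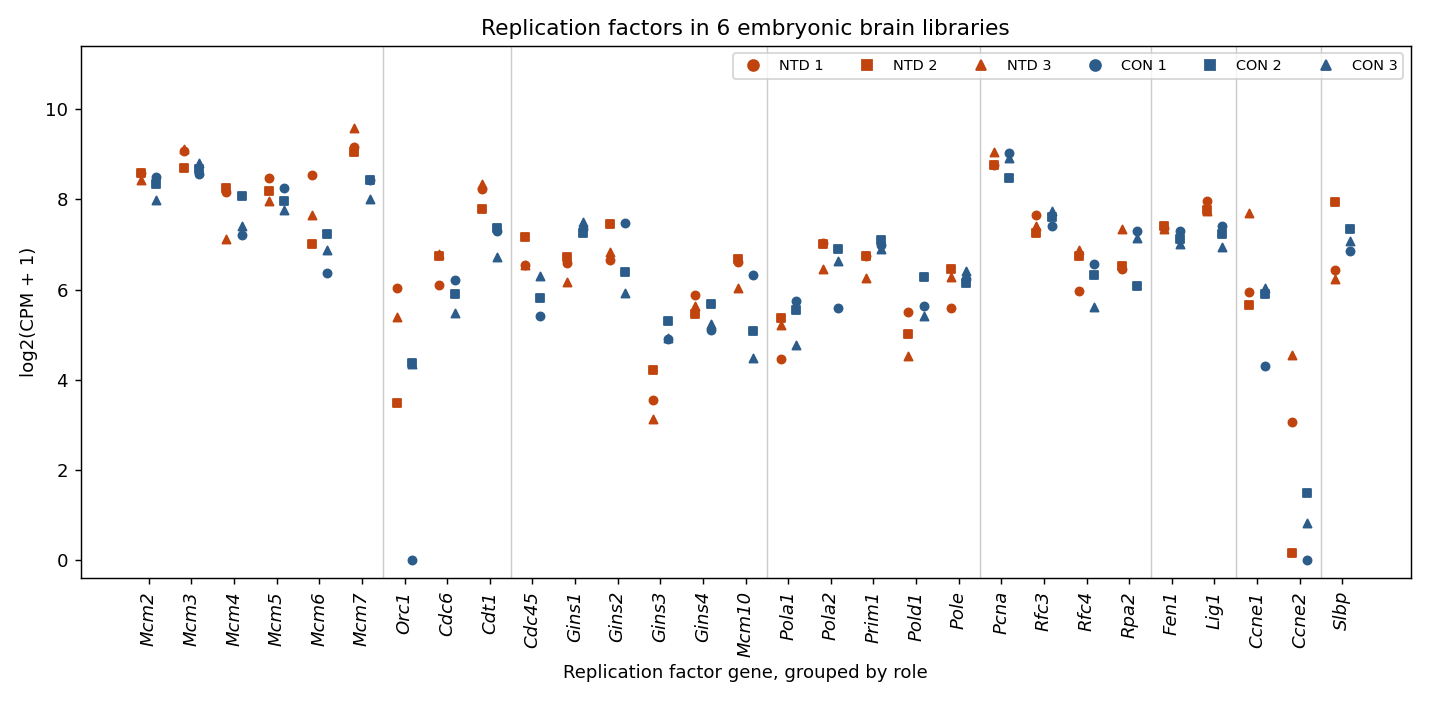
Level of each of the 29 replication factors in each brain library, as log2(CPM + 1), with NTD libraries in orange left of CON libraries in blue and grey lines between roles. The groups overlap for most genes; Mcm7, Cdt1, Cdc45, Fen1 and Lig1 are higher in every NTD library, and Gins1, Gins3 and Prim1 are lower.

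The 6 subunits of the MCM2-7 helicase, the ring that unwinds DNA, all had positive fold changes (0.214 to 1.007 on the log2 scale), and none was called. Their summed level was 2497, 2050 and 2245 CPM in NTD and 1612, 1744 and 1455 CPM in CON, with no overlap. Mcm7 (ENSMUSG00000029730, chr5:138164583-138172422, minus strand) carried the smallest p of all factors. It had 567, 530.1 and 762 CPM in NTD and 344.5, 344.3 and 256.9 CPM in CON. Every NTD library lay above every CON library, at a log2 fold change of 0.98 ± 0.23 (SE) and an edgeR adjusted p of 0.0547. The adjusted p of Mcm7 was 0.00178 with DESeq2, 0.0419 with limma-voom and 0.0427 in edgeR without a filter on low counts, and it ran up to 0.186 when single libraries were left out.

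The promoter of Mcm7 is shown because it holds the letters bound by E2F, the family of transcription factors known for S phase genes, and that of Gins3 because it holds them too although Gins3 lay lower in every NTD library. Both are RefSeq windows of build GRCm38.p6 running from 250 bases before to 50 bases after the start, printed 5′ to 3′ on the gene's strand with E2F letters in capitals.
Mcm7 promoter, chr5:138171834-138172133 (-): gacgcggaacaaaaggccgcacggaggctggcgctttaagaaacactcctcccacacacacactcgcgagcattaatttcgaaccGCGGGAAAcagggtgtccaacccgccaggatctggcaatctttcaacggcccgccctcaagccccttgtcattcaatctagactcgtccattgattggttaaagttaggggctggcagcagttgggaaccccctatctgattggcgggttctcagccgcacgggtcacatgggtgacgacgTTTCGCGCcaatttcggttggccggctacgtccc
Gins3 promoter, chr8:95633309-95633608 (+): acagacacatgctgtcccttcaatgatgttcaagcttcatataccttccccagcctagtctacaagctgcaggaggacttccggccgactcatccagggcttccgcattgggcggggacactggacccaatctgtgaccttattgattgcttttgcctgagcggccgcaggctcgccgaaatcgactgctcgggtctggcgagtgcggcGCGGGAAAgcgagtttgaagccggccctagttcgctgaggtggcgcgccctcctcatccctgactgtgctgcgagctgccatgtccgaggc
The letters searched were TTTCCCGC, TTTCGCGC, TTTGCCGC and TTTGGCGC on both strands. In Mcm7 a match began 165 bases before the start and another 16 bases after it, while a second RefSeq window of the gene held none. In Gins3 a match began 41 bases before the start. Of the 23 factors with a window in the RefSeq table, 12 (52.2%) held such a match in at least 1 window, and 44.4% of their 27 windows did, beside 2.26% of all 32851 windows. The 12 were Mcm3, Mcm5, Mcm6, Mcm7, Orc1, Cdc6, Cdt1, Gins3, Pola1, Pold1, Rfc3 and Lig1. Their log2 fold changes ran from -1.427 for Gins3 to 1.554 for Orc1, so promoters with these letters belonged to genes on both sides of 0. Mcm4, Gins1, Gins2, Gins4, Pole and Ccne2 had no entry. A match is a description of these windows and not of a bound site, and its link to the fold changes was not tested.

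Mcm6 had 370.6, 128 and 199 CPM in NTD and 80.99, 149.5 and 116.7 CPM in CON. Its log2 fold change was 1.01 ± 0.40 (SE; edgeR adjusted p = 0.258). NTD 1 stood far above the rest, and NTD 2 lay below CON 2. Mcm2 had 384.4, 382.4 and 341.5 CPM in NTD and 357.6, 323.6 and 250.5 CPM in CON. Mcm3 had 536.4, 415.8 and 555.2 CPM in NTD and 378.2, 409.3 and 443.4 CPM in CON. In both genes the groups overlapped, by the lowest NTD and the highest CON library. Mcm4 had 285.4, 304.7 and 137.4 CPM in NTD and 145.9, 269.7 and 170.2 CPM in CON. Mcm5 had 353.5, 289.5 and 250.2 CPM in NTD and 305.1, 247.7 and 217 CPM in CON. The log2 fold changes of these 4 subunits (0.214 to 0.312) were each close to the median of the factors, and their edgeR adjusted p-values ran from 0.601 to 0.804.

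Of the proteins that load the helicase, Cdt1 (chr8:122568015-122573554), the factor that brings MCM2-7 to the origin, differed by the most in relation to its spread. It had 299.9, 218.2 and 322.1 CPM in NTD and 156.7, 162.8 and 103.9 CPM in CON. All NTD libraries lay above all CON libraries, at a log2 fold change of 0.99 ± 0.27 (SE; edgeR adjusted p = 0.094, DESeq2 adjusted p = 0.0174). Cdc6, the loading ATPase, had 67.65, 105.6 and 109.1 CPM in NTD and 72.84, 58.33 and 43.47 CPM in CON, and NTD 1 fell below CON 1. Orc1, the largest subunit of the origin recognition complex, had 64.29, 10.2 and 40.7 CPM in NTD and 0, 19.76 and 19.47 CPM in CON. Its values ranged widely in both groups and overlapped. The edgeR adjusted p was 0.408 for Cdc6 and 0.76 for Orc1.

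Genes of the helicase activation step lay on both sides of 0. Cdc45, which binds the helicase at the fork, had 91.64, 143.2 and 92.47 CPM in NTD and 41.79, 55.44 and 77.55 CPM in CON, with no overlap (log2 fold change 0.91 ± 0.35 SE; edgeR adjusted p = 0.245). Gins1, a GINS subunit, had 94.96, 104.2 and 70.95 CPM in NTD and 162.3, 152 and 179.3 CPM in CON, and each NTD library lay below each CON library. Its log2 fold change was -0.87 ± 0.26 (SE), with an adjusted p of 0.133 in edgeR and 0.0431 in DESeq2. Gins3, a second GINS subunit, had 10.7, 17.65 and 7.816 CPM in NTD and 28.98, 38.75 and 29.59 CPM in CON, again with no overlap (log2 fold change -1.43 ± 0.61 SE; edgeR adjusted p = 0.311). The other two GINS genes had positive values, 0.276 for Gins2 and 0.308 for Gins4 on the log2 scale, with edgeR adjusted p-values of 0.876 and 0.838. Thus Gins1 and Gins3, members of a complex whose 4 proteins act together, had fold changes of the opposite sign to Gins2 and Gins4, and whether the subunits differ from each other was not tested. Mcm10, a scaffold of helicase activation, averaged 87.4 ± 19.86 CPM in NTD and 44.38 ± 30.48 CPM in CON (SD, n = 3 each; edgeR adjusted p = 0.417).

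Of the 5 polymerase and primase genes, 4 had negative fold changes (median of the 5, -0.359 on the log2 scale) and none was called. Prim1, the catalytic primase subunit, had 106, 105.9 and 75.88 CPM in NTD and 126.4, 136.3 and 119.2 CPM in CON, and the groups did not overlap (log2 fold change -0.41 ± 0.27 SE; edgeR adjusted p = 0.579). Pola1, the catalytic subunit of polymerase alpha, had 20.86, 40.25 and 36.31 CPM in NTD and 52.79, 45.87 and 26.25 CPM in CON, which overlapped. The rest overlapped as well. Pold1, the catalytic subunit of polymerase delta, averaged 32.51 ± 11.06 CPM in NTD and 55.35 ± 18.32 CPM in CON (SD, n = 3 each). Pole, that of polymerase epsilon, averaged 70.14 ± 20.24 CPM in NTD and 75.84 ± 7.251 CPM in CON. Pola2, the accessory subunit of polymerase alpha, averaged 114.9 ± 23.81 CPM in NTD and 87.9 ± 36.43 CPM in CON.

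The groups overlapped for the clamp and for the loader genes Rfc3 and Rfc4. Pcna, the sliding clamp, had 431, 429.9 and 526.1 CPM in NTD and 523.1, 352.6 and 485.6 CPM in CON. Its log2 fold change was 0.03 with a 95% interval of -0.46 to 0.51 (edgeR adjusted p = 0.98). That interval leaves out a doubling but holds smaller rises and falls within these limits. The clamp loader genes Rfc3 and Rfc4 had log2 fold changes of -0.14 and 0.359, and Rpa2, which coats single strands, of -0.1, with overlapping groups in all 3 genes. The joining of Okazaki fragments, the short pieces of the lagging strand, rests on Fen1 and Lig1, and both lay above CON in every NTD library. Lig1, DNA ligase I, had 249.4, 214.7 and 213.6 CPM in NTD and 169, 149.9 and 122.8 CPM in CON (log2 fold change 0.62 ± 0.23 SE; edgeR adjusted p = 0.224). Fen1, the flap endonuclease, had 163.7, 168.5 and 160.4 CPM in NTD and 155.5, 137.4 and 127.7 CPM in CON (log2 fold change 0.23 ± 0.23 SE; edgeR adjusted p = 0.766). The gap between the groups was wide for Lig1 and narrow for Fen1.

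**Figure D2:**
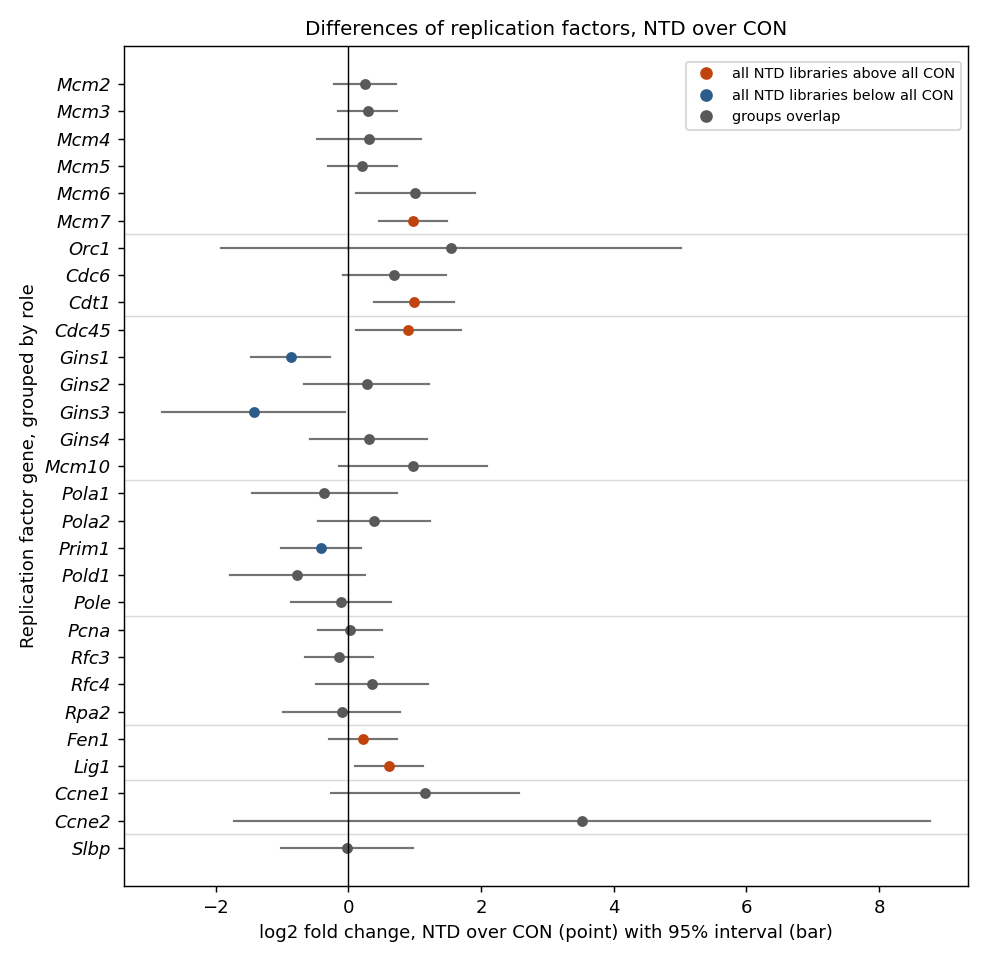
Log2 fold change of NTD over CON for each of the 29 replication factors (points) with 95% intervals (bars), grouped by role; orange and blue points mark genes whose NTD libraries all lie above or all below the CON libraries. The intervals of Mcm6, Mcm7, Cdt1, Cdc45 and Lig1 lie above 0, those of Gins1 and Gins3 below 0, and none of these genes passed adjustment over all genes.

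The cyclin E genes, whose kinase drives cells into S phase, varied widely between libraries. Ccne1 had 60.47, 49.48 and 206.8 CPM in NTD and 18.76, 58.77 and 64.19 CPM in CON. NTD 3 stood far above the rest. The log2 fold change was 1.16 (edgeR adjusted p = 0.46), and it was 0.118 without NTD 3, 0.781 without CON 1 and -0.169 without both. Ccne2 had 7.421, 0.1163 and 22.31 CPM in NTD and 0, 1.79 and 0.7828 CPM in CON. The groups overlapped, since NTD 2 lay below CON 2 and CON 3 (edgeR adjusted p = 0.582). Slbp, which binds the histone stem-loop, had 86.05, 245.9 and 74.01 CPM in NTD and 114.5, 162.4 and 133 CPM in CON. NTD 2 was the highest library and the other two NTD libraries the lowest, and the log2 fold change was -0.01 with a 95% interval of -1.01 to 0.98 (edgeR adjusted p = 0.994).

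Other genes of the pathway were counted from lists. Of 31 further replication genes tested, 0 were called by edgeR (5 at an unadjusted p under 0.05, beside 15% of all tested genes; median log2 fold change 0.116). Without NTD 3 and CON 1, 2 of these genes were called higher, Rfc5 (log2 fold change 1.902, edgeR adjusted p = 0.0292) and Pole2, a subunit of polymerase epsilon (2.682, edgeR adjusted p = 0.0468). The share of all tested genes called in that fit is not given here, so calls in that fit have no background beside them. Over the 6 libraries the smallest p of the list was that of Rpa3, a subunit of the single strand binding protein. It had 563.4, 273.6 and 705.8 CPM in NTD and 224, 254.1 and 204.1 CPM in CON (edgeR adjusted p = 0.1). Rfc5, of the clamp loader, had 121.2, 154.7 and 154.9 CPM in NTD and 114.2, 41.05 and 32.36 CPM in CON (edgeR adjusted p = 0.243). In both genes the groups did not overlap. Of 10 tested chaperones that bring histones to the fork, 0 were called (2 at an unadjusted p under 0.05; median 0.165). Hat1, which acetylates new histone H4, had 336, 398.4 and 407.4 CPM in NTD and 255.5, 150.5 and 115.8 CPM in CON (log2 fold change 1.13 ± 0.30 SE; edgeR adjusted p = 0.0908, and 0.0277 without NTD 3 and CON 1, where it was the only chaperone called). Nap1l1, a chaperone of H2A and H2B, had 1072, 1178 and 929.3 CPM in NTD and 622.6, 753.5 and 668.3 CPM in CON (log2 fold change 0.64 ± 0.18 SE; edgeR adjusted p = 0.115). Neither passed adjustment over the 6 libraries, and in both every NTD library lay above every CON library.

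Among 21 tested regulators of the step from G1 to S, 1 fell and 0 rose, beside 0.998% lower and 1.89% higher among all tested genes. Ccnd1, cyclin D1, had 200.4, 117.6 and 166.4 CPM in NTD and 369.3, 381.4 and 350.5 CPM in CON, with a log2 fold change of -1.19 ± 0.24 (SE; edgeR adjusted p = 0.0355). The edgeR adjusted p of Ccnd1 was 0.0557 without NTD 3 and CON 1 and 0.0803 to 0.129 with each single library left out. The call was lost in each of these fits, while the log2 fold change stayed between -1.44 and -1.075. With all libraries kept, Ccnd1 was also lower with DESeq2 (adjusted p = 0.000474) and with limma-voom (adjusted p = 0.0204). Cdkn2d, an inhibitor of the cyclin D kinases, had 19.61, 5.391 and 19.3 CPM in NTD and 52.7, 70.31 and 82.62 CPM in CON (log2 fold change -2.22 ± 0.57 SE; edgeR adjusted p = 0.0784). Both genes were lower in each NTD library than in any CON library. The median of this list was -0.036.

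The 44 replication histone genes comprised 5 of class H1, 12 of H2A, 9 of H2B, 10 of H3 and 8 of H4. Of the 39 with a gene model in GENCODE M21 (GRCm38, the assembly mm10 names), 32 lie on chromosome 13, 5 on chromosome 3 and 2 on chromosome 11. The stem-loop found after the stop codon is shown for the genes the results turn on. Some annotated gene models run on past it. Those of Hist3h2a, Hist1h1c and Hist1h4d end at base 58956830, 23740367 and 23582735 of their chromosomes. Each sequence was read from the GENCODE M21 transcript and is printed 5′ to 3′ as DNA, with the 16 bases of the stem-loop in capitals and up to 5 bases on each side in lower case.
Hist3h2a, class H2A, chr11:58955167-58955192 (+): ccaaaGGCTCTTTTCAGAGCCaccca
Hist1h1c, class H1, chr13:23739507-23739532 (+): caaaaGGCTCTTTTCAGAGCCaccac
Hist1h2bk, class H2B, chr13:22036295-22036320 (+): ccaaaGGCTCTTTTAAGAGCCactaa
Hist1h3c, class H3, chr13:23745042-23745067 (-): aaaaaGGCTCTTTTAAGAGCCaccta
Hist1h4b, class H4, chr13:23757361-23757386 (+): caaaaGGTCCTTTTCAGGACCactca
Hist1h4c, class H4, chr13:23698084-23698109 (-): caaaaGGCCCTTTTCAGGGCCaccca
Hist1h4d, class H4, chr13:23581945-23581970 (+): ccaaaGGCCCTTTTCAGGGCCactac
Hist1h4i, class H4, chr13:22040961-22040986 (-): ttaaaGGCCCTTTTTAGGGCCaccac
The search took 16 bases after the stop codon, on the transcript's strand, that open with GG, hold T at bases 6, 7 and 9 and A at base 11, and close with CC, and 31 of the 39 genes held them, starting 22 to 59 bases after the stop codon (median 33). The form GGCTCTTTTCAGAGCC was shared by 20 genes of classes H1, H2A, H2B and H3 and by no H4 gene. All 7 H4 genes with a match had one of 4 other forms, in which the stem opens with GGCCC or GGTCC. The 8 genes with a transcript but no match were Hist1h1a, Hist1h1b, Hist1h2ah, Hist1h2ai, Hist1h2bc, Hist2h2be, Hist2h3b and Hist1h4k, which says only that these letters are not in the annotated transcript.

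Replication histones were sparse in these libraries, in contrast to the factors. Per length, the 39 genes with a model summed to 107.8, 129.4 and 205.6 RPKM in NTD and to 98.98, 170.8 and 214.8 RPKM in CON. The 11 other histone genes, counted as a list of variants such as H3.3, H2A.Z and H2A.X whose names fall outside the symbol pattern, summed to 3305, 3053 and 3381 RPKM in NTD and to 3424, 3303 and 4011 RPKM in CON, and H2afx alone, which is also known to make a stem-loop mRNA, averaged 1383 RPKM in NTD and 1351 RPKM in CON. The 29 factors summed to 1328 to 1450 RPKM in NTD and 1111 to 1205 RPKM in CON. Near-identical histone copies share reads, and whether the deposited counting split or dropped them is not given in the sources used here. Values of single copies are therefore uncertain, and class sums are given beside them. If shared reads were dropped, class sums and the RPKM sums above would be too low as well. Some histone gene models also run past the stem-loop, which lowers RPKM where the mRNA ends there.

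Detection of single histone genes was patchy. Counts above 0 were found for 20, 21 and 21 of the 44 genes in NTD and for 15, 28 and 29 in CON. Only 8 genes had counts in all 6 libraries, 12 had none in any CON library and 9 had none in any NTD library. In NTD, 18 genes had counts in just 1 of the 3 libraries. Hist1h1a, for instance, had 337 counts in NTD 1 and 0 in the other 5 libraries. All 28 genes found in CON 2 were also found in CON 3, where they made up 96.55% of the 29 found, while 12 of the 15 in CON 1 (80%) were found in CON 3. Over all genes of the table, 98.79% of those found in CON 2 were found in CON 3 and 94.65% of those found in CON 1 were. Over all tested genes, log2(CPM + 1) of CON 2 and CON 3 correlated at 0.9227, and every other pair of libraries at 0.698 to 0.847. Whether CON 2 and CON 3 are independent samples is not given, while the tests count CON as 3 replicates.

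**Figure D3:**
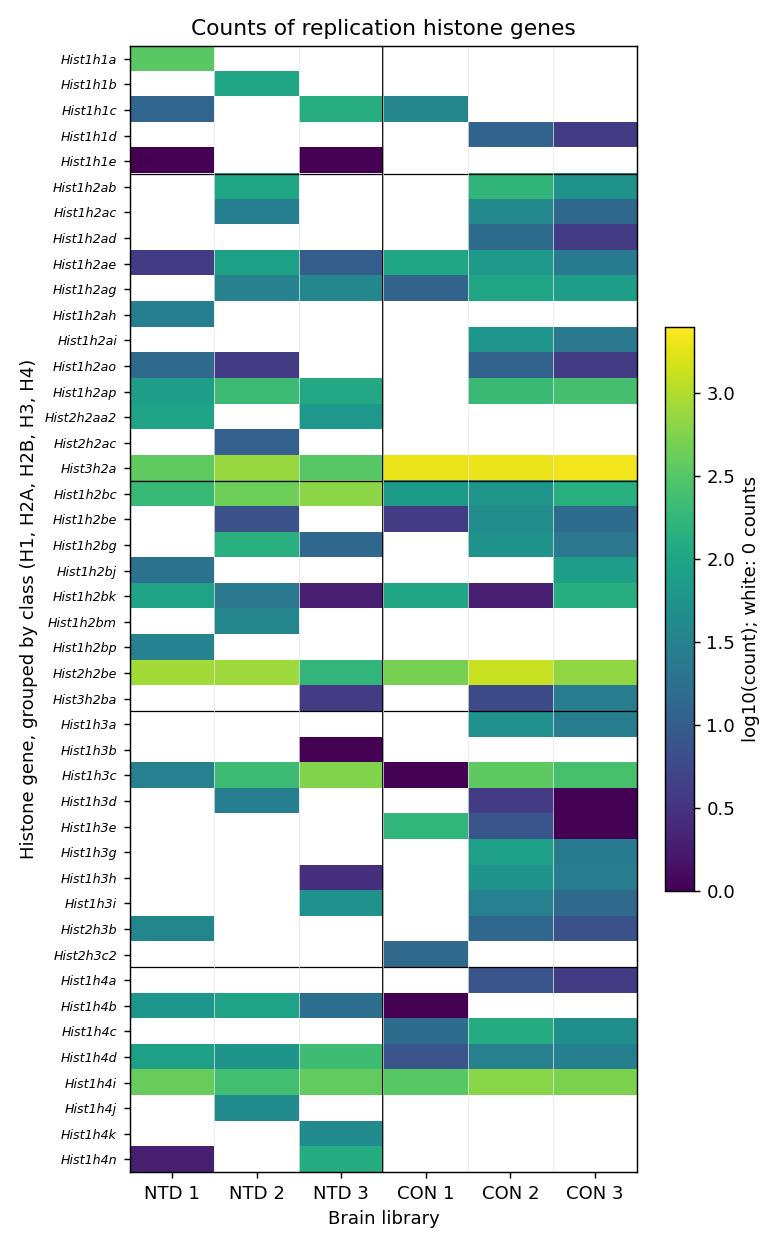
Counts of the 44 replication histone genes (rows, grouped by class) in each brain library (columns, NTD left of CON) as log10(count), with white for 0 counts. Hist3h2a, Hist2h2be, Hist1h4i and Hist1h2bc are seen in every library, many other genes in 1 or 2 libraries of a group, and CON 2 and CON 3 share their pattern.

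Only 17 of the 44 genes passed the filter on low counts and were tested. Since a gene could pass through the group where it was high, counts and medians over these 17 describe them alone. By edgeR 0 rose and 1 fell, Hist3h2a, beside 1.89% higher and 0.998% lower among all tested genes, and 3 of 17 had an unadjusted p under 0.05, beside 15%. DESeq2 and limma-voom gave the same counts of 0 and 1. In 3 genes (Hist1h2bc, Hist1h4b and Hist1h4d) every NTD library lay above every CON library, and in 2 (Hist3h2a and Hist1h4c) below, beside 12.4% above and 12.1% below (24.5% in all) among all tested genes. The median log2 fold change was -0.441, with 7 above 0 and 10 below. Taken per library, the median deviation of these genes in log2(CPM + 1) had an SD of 0.549 between replicate libraries. That SD is for single libraries and on another scale than the fold change. The bound of Hist1h4c also lies below the median, which is then -0.441 by construction.

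Hist3h2a (ENSMUSG00000078851, chr11:58954685-58956830, plus strand), an H2A gene of the small cluster on chromosome 11, had the highest CPM of the replication histones in CON, while Hist2h2be and Hist1h2bc averaged more in NTD. It had 14.49, 29.01 and 19.6 CPM in NTD and 85.26, 73.16 and 110.2 CPM in CON, from 326 to 748 counts in NTD and 1977 to 2111 counts in CON. Hist3h2a fell in NTD by 2.09 ± 0.41 on the log2 scale (SE), with an edgeR adjusted p of 0.0283. The edgeR call was lost without NTD 1, NTD 3, CON 1, CON 2 or CON 3 (edgeR adjusted p of 0.118, 0.093, 0.0646, 0.0821 and 0.132) and without NTD 3 and CON 1 together (0.0557). It was also lost with the replicate number as a block. The log2 fold change stayed between -2.48 and -1.92. In the same libraries neuron genes summed to 866.6 to 1022 CPM in NTD and to 4395 to 6208 CPM in CON, and trophoblast genes to at least 1077 CPM in NTD and at most 1.044 CPM in CON. Their part in the fall of Hist3h2a was not tested. Hist3h2ba, the H2B gene of the same cluster, had 0, 0 and 4 counts in NTD and 0, 6 and 28 counts in CON and was not tested.

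The promoter of Hist3h2a is shown as the one histone gene that was called. The window is RefSeq's (GRCm38.p6), with CCAAT boxes and the octamer ATTTGCAT, either strand, in capitals.
Hist3h2a promoter, chr11:58954435-58954734 (+): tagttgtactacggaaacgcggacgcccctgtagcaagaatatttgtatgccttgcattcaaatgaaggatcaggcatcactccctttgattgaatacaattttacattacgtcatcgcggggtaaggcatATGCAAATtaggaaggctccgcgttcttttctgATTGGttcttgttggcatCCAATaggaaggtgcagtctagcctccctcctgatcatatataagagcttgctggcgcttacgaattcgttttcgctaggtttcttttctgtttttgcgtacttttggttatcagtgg
The octamer, on the other strand, began 119 bases before the start, and CCAAT letters began 86 and 68 bases before it, with no overlap. Of the 41 histone genes with a window, 87.8% held CCAAT, 58.5% TATAAA and 24.4% the octamer in at least 1 window, beside 41.1%, 15.7% and 1.97% of all 27025 genes with a window. The octamer was found in H2A genes (50%) and H2B genes (57.1%) and in none of classes H1, H3 and H4. These shares count genes and not separate sites. The windows of the neighbours Hist1h2ae and Hist1h2bg overlap, as do those of Hist1h2ah and Hist1h2bk, and each pair shares 1 octamer. The octamer is known for H2B promoters and is bound by Oct1. Among other genes that hold the octamer, Hist1h2ae (4 to 103 counts per library) and Hist1h2bk (2 to 130) had overlapping groups (edgeR adjusted p of 0.912 and 0.895). Their fold changes had an SE of 2.022 and 2.187 on the log2 scale. Any link between the octamer and these differences was not tested. The genes Hist1h2bc, Hist2h2be and Hist1h3a had no entry.

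By class, Hist3h2a set the difference in H2A. Class H2A summed to 23.01, 47.47 and 33.07 CPM in NTD and to 90.22, 97.66 and 133.9 CPM in CON. Without Hist3h2a it summed to 8.515, 18.46 and 13.47 CPM in NTD and to 4.96, 24.51 and 23.69 CPM in CON, which overlapped. Hist3h2a made up 13.49%, 21.72% and 11.13% of all replication histone CPM in NTD and 58.91%, 36.01% and 45.42% in CON. The 43 other genes summed to 92.92, 104.6 and 156.4 CPM in NTD and to 59.47, 130 and 132.4 CPM in CON. The groups of this sum overlapped, with CON 1 the lowest of the 6 libraries.

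Class H1, the linker histones, summed to 13.71, 4.188 and 7.936 CPM in NTD and to 1.639, 0.4383 and 0.2088 CPM in CON, without overlap. A different gene carried the sum in each NTD library: Hist1h1a held 337 counts in NTD 1, Hist1h1b held 108 in NTD 2 and Hist1h1c held 131 in NTD 3. Class H2B, H3 and H4 sums overlapped. Class H2B summed to 46.44, 55.92 and 50.2 CPM in NTD and 29.54, 53.91 and 57.2 CPM in CON. Class H3 summed to 2.578, 9.346 and 37.28 CPM in NTD and 8.108, 22.32 and 19.1 CPM in CON. Class H4 summed to 21.68, 16.64 and 47.56 CPM in NTD and 15.22, 28.82 and 32.2 CPM in CON. NTD 3 was the highest library of both H3 and H4.

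**Figure D4:**
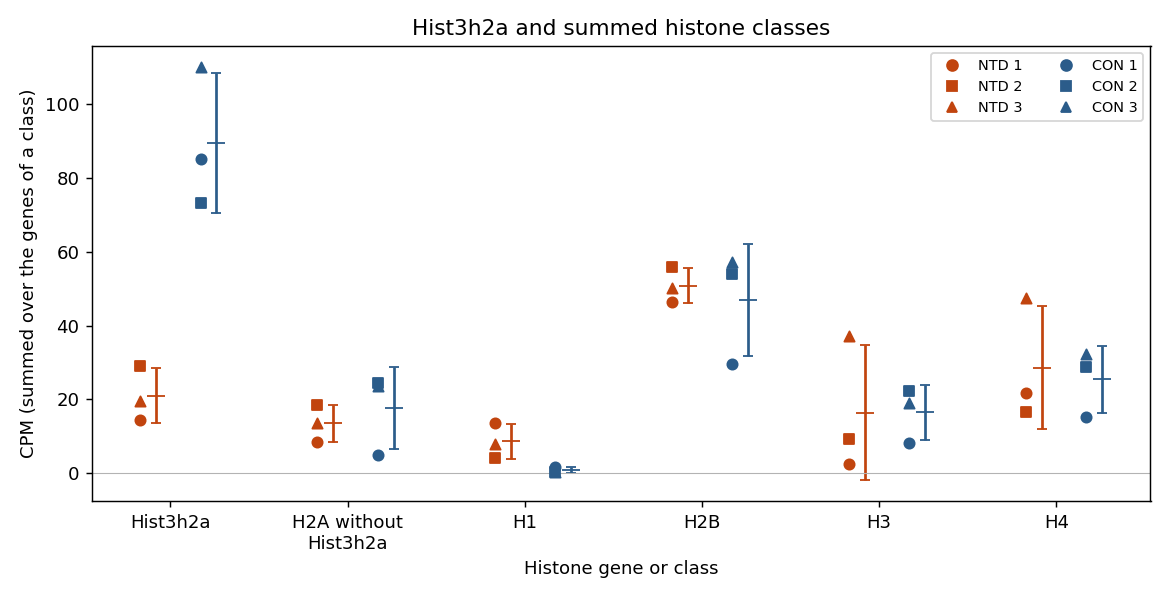
CPM of Hist3h2a and summed CPM of the histone classes in each brain library, NTD in orange left of CON in blue, with the mean and SD of 3 libraries beside the points. Hist3h2a lies between 14.49 and 29.01 CPM in NTD and between 73.16 and 110.2 CPM in CON; H2A without it, H2B, H3 and H4 overlap, and H1 is below 14 CPM throughout.

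Other single histone genes had few counts or a wide spread. Hist2h2be, an H2B gene, had 32.93, 30.83 and 10.46 CPM in NTD and 21.74, 47.74 and 35.54 CPM in CON, and Hist1h4i, an H4 gene, had 15.86, 9.036 and 22.79 CPM in NTD and 14.15, 22.72 and 27.87 CPM in CON. Both overlapped (edgeR adjusted p of 0.822 and 0.881). Hist1h2bc had 7.812, 17.33 and 38.54 CPM in NTD and 3.105, 2.155 and 7.359 CPM in CON (log2 fold change 2.33 ± 1.07 SE; edgeR adjusted p = 0.353). The H4 gene Hist1h4d had 3.359, 2.249 and 13.35 CPM in NTD and 0.345, 1.096 and 1.514 CPM in CON (edgeR adjusted p = 0.617). In Hist1h2bc and Hist1h4d the groups lay apart by less than the spread within NTD.

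The H4 genes Hist1h4b and Hist1h4c were found almost wholly in opposite groups. Hist1h4b had 61, 94 and 17 counts in NTD and 1, 0 and 0 counts in CON, a ratio of 176.3 (exact binomial 95% interval 31.23 to 7004, for counting error only). Hist1h4c had 0 counts in every NTD library and 16, 129 and 50 counts in CON, at least 19.36-fold lower in NTD against a floor of 3 counts per library. Neither was called (edgeR adjusted p of 0.25 and 0.209). Both genes passed the filter on low counts through the group where they were high. The ratio and the bound leave out the spread between libraries, in which single histone genes were often at 0. The stem-loops of Hist1h4b and Hist1h4c, printed above, differ in the stem, GGTCC in Hist1h4b and GGCCC in Hist1h4c. Hist1h4d, which lay higher in every NTD library, has the same stem-loop letters as Hist1h4c. Any link between the stem-loop letters and these differences was not tested. Of the remaining genes with the smallest p, Hist1h1c had 13, 0 and 131 counts in NTD and 38, 0 and 0 counts in CON. Hist1h2bk had 95, 23 and 2 counts in NTD and 105, 2 and 130 counts in CON. Hist1h2ag had 0, 32 and 38 counts in NTD and 12, 100 and 77 counts in CON. These 3 genes overlapped between groups and had edgeR adjusted p-values of 0.837 to 0.903.

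The highest genes of the classes not yet named varied between libraries of a group. Hist1h2ap, an H2A gene, had 3.086, 8.338 and 6.674 CPM in NTD and 0, 7.597 and 13.1 CPM in CON. Hist1h3c, an H3 gene, had 1.172, 8.222 and 33.85 CPM in NTD and 0.04313, 13.29 and 13.62 CPM in CON. Hist1h3e, another H3 gene, had 0 counts in all NTD libraries and 172, 8 and 1 counts in CON, and was not tested. The H3 genes each had 1 CON library far from the other two.

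None of the genes listed for histone mRNA processing and none of the other histone genes was called. Of the 11 genes on the processing list, not all of which act on the 3′ end itself, edgeR called 0 (0 at an unadjusted p under 0.05, median log2 fold change 0.007). The smallest p were those of Lsm10, of the U7 particle, at 33.71, 52.7 and 41.37 CPM in NTD and 42.39, 28.31 and 16.28 CPM in CON, and of Cpsf2, of the cleavage complex, at 90.35, 96.8 and 73.71 CPM in NTD and 102.6, 91.2 and 126 CPM in CON. Of the 11 other histone genes, 0 were called (0 at an unadjusted p under 0.05; log2 fold changes -1.472 to 0.414, median -0.207). Cenpa, the centromere histone, had 521.2, 648.6 and 429.3 CPM in NTD and 408.1, 417.6 and 374.3 CPM in CON (edgeR adjusted p = 0.417). H1fx, a linker histone, had 10.94, 128.9 and 22.43 CPM in NTD and 113.8, 212.6 and 124.1 CPM in CON (edgeR adjusted p = 0.489). Cenpa lay higher in each NTD library than in any CON library, and H1fx overlapped.

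In mESC the comparison asks how the same genes stand in cells without folic acid. Pluripotency genes were present in both libraries. Among the 9 listed in the table, Pou5f1 was at 405.08 FPKM in FA0 and 455.88 FPKM in FA4, and the lowest, Klf4, at 21.66 FPKM in FA0 and 15.05 FPKM in FA4. With 1 library per condition there is no replicate check and no test. None of the 26 listed factors differed by 1.5-fold on the log2(FPKM + 1) scale, where 3.26% of the 6771 genes averaging 5 FPKM or more were that much higher in FA0 and 3.25% that much lower (6.51% either way). The median log2 ratio of FA0 over FA4 was -0.019 over the factors, with 11 above 0 and 15 below, and -0.001 over the 6771 genes.

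The MCM2-7 genes were among the higher factors per length, each above at least 92.98% of the 6771 genes in mean FPKM. Mcm5 had 220.89 FPKM in FA0 and 243.35 FPKM in FA4, and Mcm7 had 192.48 FPKM in FA0 and 184.17 FPKM in FA4. Mcm3 had 165.05 FPKM in FA0 and 161.4 FPKM in FA4, and Mcm2 had 157.04 FPKM in FA0 and 185.2 FPKM in FA4. Mcm6 had 129.98 FPKM in FA0 and 130.24 FPKM in FA4, and Mcm4 had 95.65 FPKM in FA0 and 104.93 FPKM in FA4. All 4 listed loading factors were slightly lower in FA0: Cdt1 at 114.18 FPKM in FA0 and 125.19 FPKM in FA4, Orc6 at 75.93 FPKM in FA0 and 76.78 FPKM in FA4, Orc1 at 43.29 FPKM in FA0 and 46.16 FPKM in FA4, and Cdc6 at 33.8 FPKM in FA0 and 38.15 FPKM in FA4. The log2 ratios ran from -0.237 to 0.063 for the helicase and from -0.17 to -0.016 for the loading factors.

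Count ratios scaled to depth give the counting error. The exact 95% interval of the ratio held 1 for 18 factors, lay above 1 for 2 (7.69%) and below 1 for 6 (23.1%), beside 19.7% above and 17.6% below among the 6771 genes. Pole, the largest ratio upward, had 54.17 FPKM in FA0 and 44.36 FPKM in FA4 (count ratio 1.194, interval 1.12 to 1.273), and Lig1 had 67.28 FPKM in FA0 and 61.31 FPKM in FA4 (1.103, interval 1.019 to 1.195). The largest ratios downward on the log2(FPKM + 1) scale were those of Slbp, Mcm2 and Gins1. Slbp had 38.73 FPKM in FA0 and 46.58 FPKM in FA4 (count ratio 0.8504, interval 0.7472 to 0.9682). Mcm2 had a count ratio of 0.8479 (interval 0.8096 to 0.888). Gins1 had 16.09 FPKM in FA0 and 19.12 FPKM in FA4, with an interval that held 1 (0.6486 to 1.093). The others below 1 were Mcm5, Cdt1, Pola1 (33.54 FPKM in FA0 and 39.61 FPKM in FA4) and Gins3 (15.54 FPKM in FA0 and 16.7 FPKM in FA4). These intervals cover counting error alone, and the spread between cultures is unknown.

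The remaining genes with full values had intervals that held 1. Fen1 had 38.25 FPKM in FA0 and 36.82 FPKM in FA4. Ccne2 had 8.34 FPKM in FA0 and 7.56 FPKM in FA4, while its count ratio was 0.8485 (interval 0.6596 to 1.093), so the direction depended on the unit. Set beside the brain values, Mcm7, Cdt1 and Lig1, which lay higher in every NTD library, had count ratios of 1.014, 0.8965 and 1.103 in FA0 over FA4. The tables differ in unit and were made separately, and no test was made between them.

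The 3 histone genes of the mESC table were Hist1h4n, Hist1h2an and Hist1h4m. Hist1h4n, an H4 gene, had 267.29 FPKM in FA0 and 304.77 FPKM in FA4 (count ratio 0.8765, interval 0.7925 to 0.9696), above 98.48% of these 6771 genes. In the brain libraries the same gene had 2, 0 and 129 counts in NTD and 0 in all CON libraries. Hist1h2an had 33.21 FPKM in FA0 and 27.36 FPKM in FA4, with an interval that held 1 (0.8726 to 1.716). Hist1h4m was listed at 0 in both.

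**Figure D5:**
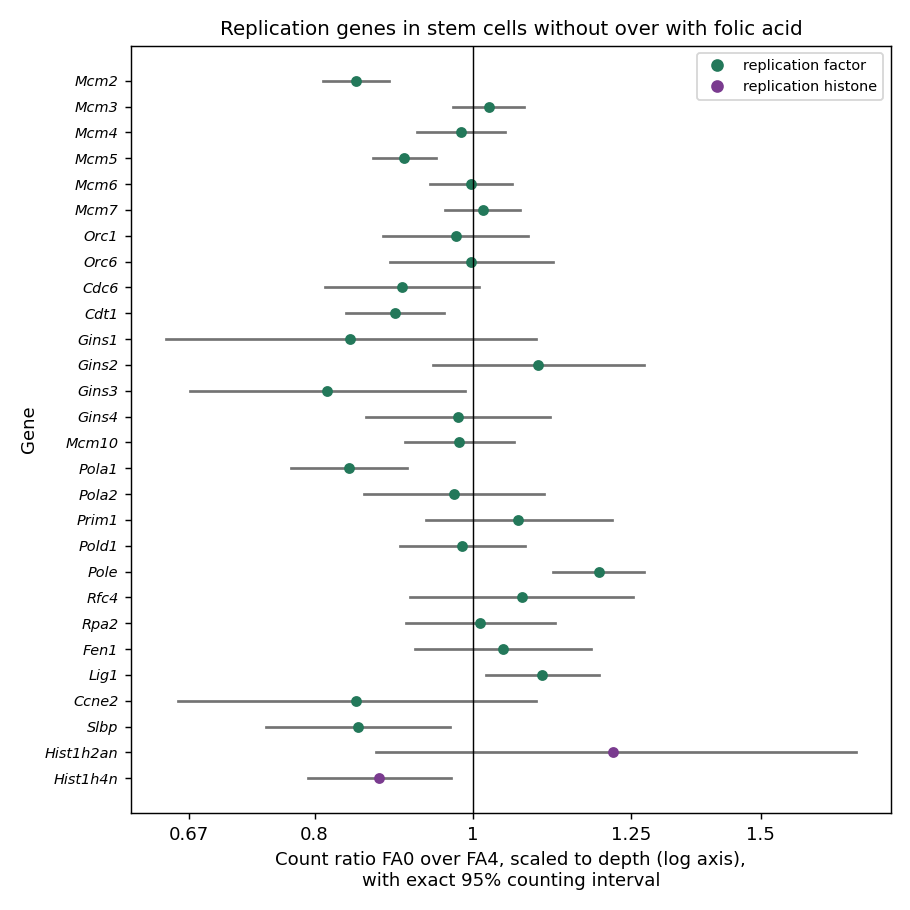
Ratio of counts in FA0 over FA4 for the 26 factors and 2 histone genes with counts in mESC, scaled to depth, on a log axis with exact 95% counting intervals; 1 library per condition. All factors lie between 0.8145 (Gins3) and 1.194 (Pole), and 18 of 26 intervals hold 1.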

How the data were processed

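RNA was depleted of ribosomal RNA and made into libraries with a kit for low input, per the labels' protocols. The submitters' processing notes name cutadapt 1.9.3, HISAT2 2.0.4, HTSeq 0.9.1, edgeR and build mm10; none of the sources used here gives the annotation, the strand setting or the treatment of reads shared by copies. The authors deposited read counts per gene for brain, per the file headers, and estimated counts and FPKM values for mESC. For mESC, 9217 genes fill 23089 entries, each gene repeated with the same values, and 10 further columns of per-sample values were not used. The mESC columns are named NFIn and NormalFIn. They were matched to FA0 and FA4 through the case and control columns that repeat their FPKM values and through the sample labels.

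The test of brain counts was edgeR's (version 4.0.16; quasi-likelihood, robust, TMM scaling, filterByExpr) in R 4.3.3 over 11626 genes, with Benjamini-Hochberg adjustment, and called at an adjusted p under 0.05. CPM divide counts by the TMM-adjusted library size, and RPKM divide CPM by the union exon length in GENCODE M21. SE and 95% intervals come from the test statistic. A group at 0 counts was set to a floor of 3 counts per library. Estimated counts of mESC were rounded, scaled by a depth ratio of 1.334 (from 2953 genes above 20 FPKM) and given exact binomial intervals. Log2 ratios used FPKM with a pseudocount of 1, which understates changes of low genes. The self-test ran on simulated data. Alternatives were DESeq2 1.42.0, limma-voom 3.58.1, other scalings and filters, the replicate number as a block, and libraries left out.

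Members, lists and tests were chosen with earlier results of these data known. Values are given in full for called genes, for fixed factors (the MCM2-7 genes, Pcna, Slbp, both cyclin E genes, Cdc6, Cdt1, Pola1, Lig1, Fen1), for the 5 factors and 10 histones with the smallest p, for the 2 highest histones of each class by CPM, for called genes and the 2 smallest p of each pathway list, and for the 3 largest mESC ratios each way. Promoter windows were matched by Entrez identifier and stem-loops by Ensembl identifier.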

Additional observations from a re-analysis of the deposited data

How the results depend on the processing

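Counts of called factors (0 higher, 0 lower) moved with the test: DESeq2 called 2 higher and 1 lower, and limma-voom and edgeR without a filter each called 1 higher. Over all genes, 220 were called higher and 116 lower; DESeq2 gave 609 and 427, and single libraries left out gave 33 to 225 higher and 17 to 78 lower. The median log2 fold change of the factors (0.292) was 0.197 with library totals alone and 0.161 to 0.311 with single libraries left out; over all genes it was -0.110 with library totals alone, -0.161 to 0.054 with single libraries left out and -0.087 without CON 1 and NTD 3. The histone median (-0.441) ran from -1.233 to 0.413 with single libraries left out and was -1.126 without CON 1 and NTD 3, where more histones passed the filter (24) and 0 were called lower. The call of Hist3h2a was lost, leaving 0 lower, in 5 of the 6 fits without 1 library.

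The labels do not say that replicate numbers pair the samples. Deviations of same-numbered samples correlated at -0.029, 0.119 and 0.068, and those of other pairs at -0.130 to 0.034. With 3 libraries per group these values cannot decide on pairing. With the replicate block 132 genes were called higher and 73 lower, and 0 histones lower.

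Some uncalled genes changed sign. With single libraries left out, log2 fold changes ran from -0.163 to 0.144 for Pcna, -0.846 to 0.202 for Slbp, -0.375 to 0.023 for Pole, -0.049 to 0.854 for Gins2 and -0.542 to 0.127 for Rpa2. Among histones they ran from -0.775 to 0.659 for Hist1h2ap, -7.078 to 0.045 for Hist1h2ac, -1.117 to 8.999 for Hist1h1c, -1.044 to 1.128 for Hist1h3c, -1.409 to 1.801 for Hist1h2bg and -6.989 to 1.419 for Hist1h3i. With library totals Pcna was -0.068. Hist1h2ap was 2.1 with limma-voom and 1.148 with the replicate block, and Hist1h3i was -1.339 and -1.218. Without CON 1 and NTD 3, Slbp was 0.161, Hist1h3c -1.524, Hist1h3i -7.536 and Ccne1 -0.169. The cause of these shifts was not tested. The mESC medians moved by less than the counting error under each alternative. Counts near 0, and 1 library per mESC condition, limit what single histone genes show.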
